A study of Mus musculus with 9 samples.

Results

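Interferon-stimulated genes are the genes that cells switch on when an interferon binds its receptor. A set of 40 such genes was followed in mouse CD8+ T cells, leaving out the guanylate-binding protein and immunity-related GTPase families. The genes were chosen by symbol from textbook knowledge of the interferon response, with earlier results of these data known. Each matched 1 of the 53679 gene identifiers of the deposited count table. Of the 40 genes, 33 passed the filter on low counts and were tested, among 15348 genes tested in all. The animals were C57BL/6 mice, and their CD8+ T cells were activated for 3 days before total RNA was sequenced. The 3 groups were Tc22 cells, labelled untreated, Tc0 cells given CoA (coenzyme A), and Tc0 cells, labelled untreated. The labels give the agent of both untreated groups as none, while the protocol speaks of CoA or vehicle. In the field, Tc22 names CD8+ T cells that secrete interleukin-22 and Tc0 those activated without polarising cytokines. The sources used here give neither the culture conditions and CoA dose nor the sex and age of the mice. Each of 3 mice, numbered 715, 725 and 728, gave 1 library of each group. Wherever 3 values of a group follow each other below, they belong to mice 715, 725 and 728 in that order.

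Type I interferons signal through the receptor chains encoded by Ifnar1 and Ifnar2 and activate ISGF3, a complex that holds STAT2 and IRF9. ISGF3 binds a promoter element called ISRE. Interferon gamma, which activated CD8+ T cells themselves make, signals through Ifngr1 and Ifngr2 to genes that carry the element called GAS. The induced proteins sense, cut or trap viral nucleic acids, modify other proteins, feed back on the pathway and load peptides onto class I molecules for display to CD8+ T cells. In T cells the same pathway also follows from activation itself, since the cells both secrete interferon gamma and respond to it.

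The libraries held 21841034 to 36254631 counts. The labelled cell type was checked first: the defining CD8 T cell markers were present, with Cd8a between 647 and 860 CPM (the field's depth-scaled count unit, here after TMM scaling). Cd4 lay between 0.14 and 1.38 CPM and was called higher in Tc22 against Tc0 (log2 1.59, adjusted p = 0.0484, SE 0.37). The summed level of 8 CD8 T cell markers was 2290 to 2840 CPM in Tc22 cells, 1860 to 2350 CPM in Tc0 cells with CoA and 2300 to 2970 CPM in Tc0 cells. The 6 CD4 and regulatory T cell markers, mostly Ctla4 and Ikzf2, which activated CD8+ T cells also express, summed to 235 to 414 CPM in Tc22 cells, 163 to 300 CPM in Tc0 cells with CoA and 402 to 651 CPM in Tc0 cells. The 5 gamma delta T cell markers, mostly Trdc, summed to 131 to 162 CPM in Tc22 cells, 101 to 129 CPM in Tc0 cells with CoA and 136 to 187 CPM in Tc0 cells. The 6 B cell markers summed to 7.1 to 11.9 CPM over the 9 libraries and the 5 erythroid markers to 0.217 to 0.703 CPM. The 6 macrophage and monocyte markers summed to 6.22 to 7.13 CPM in Tc22 cells, 5.05 to 14.0 CPM in Tc0 cells with CoA and 4.5 to 6.55 CPM in Tc0 cells. Of those, Lyz2 and Cd14 were called higher with CoA against Tc0, and Csf1r and Cd68 were not called. The Tc0 library of mouse 728 stood apart from its group. Its chi-square per degree of freedom over genes was 216 and 127 against the other 2 Tc0 libraries, while the other 7 pairs of the same group lay between 22.3 and 69.8. Its share of mitochondrial counts was 2.0%, against 3.97% and 3.33% in the other Tc0 libraries. The part of these library differences in the results below was not tested, and the counts of the set without that library are given with each comparison. In bulk RNA, fewer cells expressing a gene and less RNA per cell cannot be told apart.

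The promoter sequences of 4 of the genes are shown with letter matches to the elements ISRE or GAS. RefSeq windows from 250 bases before to 50 bases after the transcription start (GRCm38.p6) were at hand for 28 of the 40 genes, 34 windows in all since some genes have several starts, and were searched on both strands. The ISRE core was written as TTTCNNTTTC, or GAAANNGAAA on the other strand, and GAS as TTCNNNGAA, which reads the same on both strands. The ISRE core was found in at least 1 window of 12 of the 28 genes (42.9%), against 3.99% of 27025 genes counted in this way. GAS was found for 7 of 28, against 9.55% of 27025. The 250 bases before the start are printed below, 5′ to 3′ on the gene's own strand, with matches to either element in capitals. Bst2 is shown because it was called higher with CoA, Ifi203 and Stat2 because they were called lower with CoA and also hold an ISRE core, and Isg15 because its window is the densest in ISRE cores and yet the gene was barely detected.
Bst2 chr8:71537473-71537722: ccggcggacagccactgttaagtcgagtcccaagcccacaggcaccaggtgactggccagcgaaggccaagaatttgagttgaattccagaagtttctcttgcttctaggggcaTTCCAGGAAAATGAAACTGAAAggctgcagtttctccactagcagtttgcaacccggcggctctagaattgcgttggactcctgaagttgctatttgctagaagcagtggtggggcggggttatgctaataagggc
Ifi203 chr1:173942493-173942742: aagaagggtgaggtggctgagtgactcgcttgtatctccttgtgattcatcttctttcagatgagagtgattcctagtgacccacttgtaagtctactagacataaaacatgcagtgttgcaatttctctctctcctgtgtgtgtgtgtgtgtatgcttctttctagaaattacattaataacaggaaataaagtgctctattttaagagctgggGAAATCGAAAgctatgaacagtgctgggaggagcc
Stat2 chr10:128270248-128270497: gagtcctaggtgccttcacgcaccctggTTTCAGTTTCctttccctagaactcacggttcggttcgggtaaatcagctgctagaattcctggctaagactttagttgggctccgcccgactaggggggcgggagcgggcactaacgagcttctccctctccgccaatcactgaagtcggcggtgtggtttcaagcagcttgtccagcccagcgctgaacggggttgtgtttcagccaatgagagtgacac
Isg15 chr4:156200819-156201068: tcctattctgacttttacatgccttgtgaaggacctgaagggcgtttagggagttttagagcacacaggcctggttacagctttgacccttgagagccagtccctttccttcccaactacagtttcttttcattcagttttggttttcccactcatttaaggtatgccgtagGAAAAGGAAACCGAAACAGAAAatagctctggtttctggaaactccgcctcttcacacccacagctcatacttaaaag
Bst2, on the minus strand of chromosome 8, held 2 overlapping ISRE cores 130 and 124 bases before its start, and a GAS core 136 bases before it ran into the first of them. Ifi203, on the minus strand of chromosome 1, held 1 ISRE core 35 bases before the start shown, while the window of its second RefSeq start held none, and Stat2, on the plus strand of chromosome 10, held 1 at 222 bases. Isg15, on the minus strand of chromosome 4, held 3 overlapping cores 78, 72 and 66 bases before its start. Among the genes tested for CoA against Tc0, both called higher held an ISRE core (2 of 2 with a window), as did 2 of the 7 with a window called lower and 7 of the 15 with a window not called. A match describes these letters only and is no evidence of binding.

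The genes differed widely in level. B2m, the light chain of class I molecules, had the highest mean over the 9 libraries, 1588 RPKM (CPM per kilobase of exon), followed by Dtx3l at 36.5, Bst2 at 35.7, Tap1 at 31.9 and Parp9 at 27.8 RPKM. The 7 genes that did not pass the filter were Isg15, Oas2, Oasl1, Oasl2, Ifi204, Ifi44 and Rtp4. They held 51, 42, 43, 25, 54, 8 and 55 counts over all 9 libraries together and stayed under 0.7 CPM in each library, so a change in them was not detectable at this depth. Isg15, which encodes the ubiquitin-like modifier that gives the set its best-known name, had 0.17, 0.296 and 0.1599 CPM in Tc22 cells, 0.228, 0.289 and 0.222 CPM in Tc0 cells with CoA and 0.0630, 0.0466 and 0.248 CPM in Tc0 cells. These 7 include several textbook markers of a type I interferon response.

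The first comparison asks what CoA added during activation did to the set in Tc0 cells. Most of the changes were downward: Ifi203, Dhx58, Irf7, Ifi27, Irf9, Tap1, Nlrc5, Dtx3l, Samhd1 and Stat2 fell in Tc0 cells with CoA, and Ifih1 and Bst2 rose. That is 10 of 33 tested genes lower (30.3%) and 2 higher (6.06%), against 12% lower and 12.5% higher among all genes tested (edgeR, adjusted p under 0.05). The median log2 fold change of the 33 was -0.50, with a range from -2.15 to 0.95, against -0.00911 for all genes tested. The sign was negative for 24 of the 33. These calls leaned on single libraries, as did those over all genes tested. Without the Tc0 library of mouse 725 the counts were 0 lower and 0 higher in edgeR, where 10 and 3 passed an unadjusted p of 0.05. They were 2 and 0 without the CoA library of mouse 728 (12 and 4 at an unadjusted p of 0.05), 3 and 1 without the CoA library of mouse 725, and 7 and 1 without the Tc0 library of mouse 728. They were 19 and 1 without the CoA library of mouse 715 and 17 and 2 without the Tc0 library of mouse 715. Without mouse as a block they were 5 and 0 (16 and 2 at an unadjusted p of 0.05), and in DESeq2 15 and 2. Over all genes tested, 504 were lower and 656 higher without the Tc0 library of mouse 725. The CoA libraries of mice 728 and 725 left out in turn gave 670 and 815, and 569 and 756. The counts were 1872 and 2110 without Tc0 of mouse 728, and 1996 and 2360 without CoA of mouse 715. Without Tc0 of mouse 715 they were 1571 and 1674, without the block 662 and 800, and in DESeq2 1786 and 1995. The main fit had 1848 lower and 1915 higher.

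**Figure D1:**
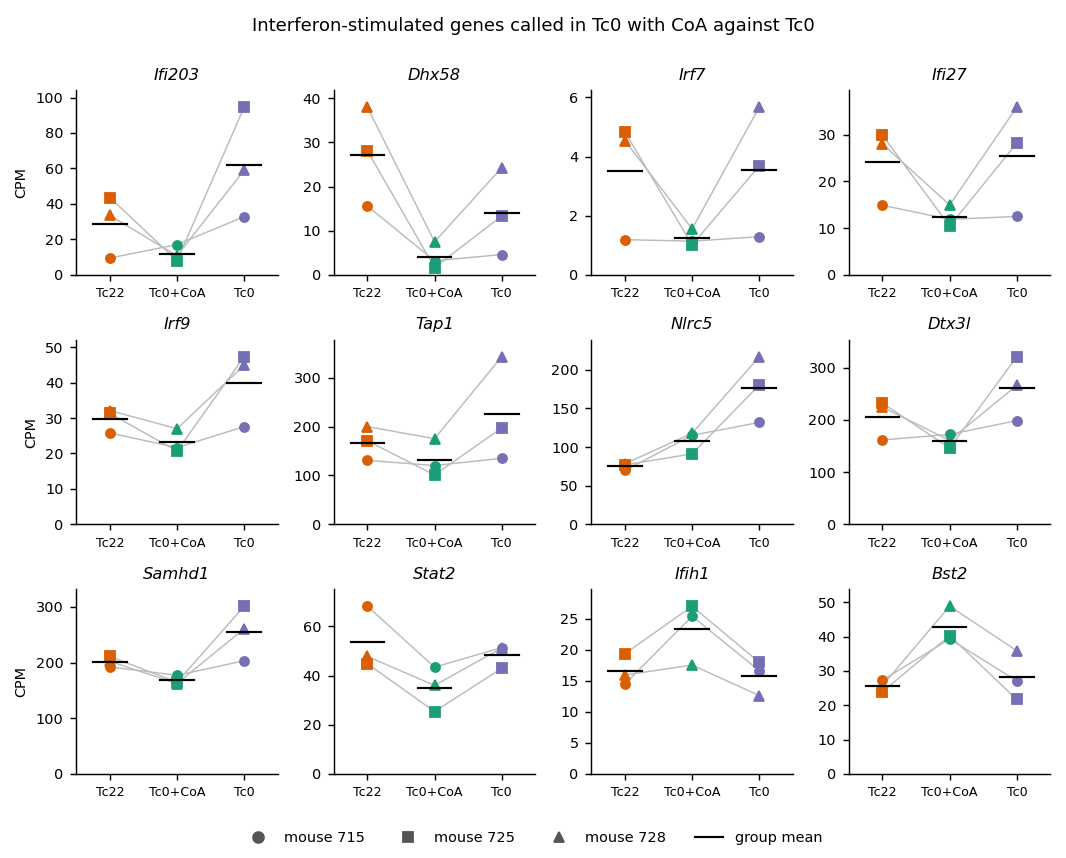
Level in CPM (y axis, linear, from 0) of the 12 interferon-stimulated genes called in Tc0 cells with CoA against Tc0 cells, in the 3 groups (x axis). Each symbol is 1 library, its shape gives the mouse, grey lines join the libraries of a mouse and black bars are group means. Irf7 and Ifi27 lie close together for mouse 715 and apart for mice 725 and 728, while Bst2 and Ifih1 are highest with CoA in each mouse.

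The second comparison sets Tc22 cells against Tc0 cells. Nlrc5, the transactivator of class I genes, was the only tested gene of the set that was called, and it fell. That is 1 of 33 lower (3.03%) and 0 higher, against 1.21% lower and 2.48% higher among all genes tested. In edgeR 8 lower and 2 higher passed an unadjusted p of 0.05, and DESeq2 called 3 lower and 0 higher. The median log2 fold change of the 33 was -0.21, against -0.00839 for all genes tested, with a range from -1.21 to 1.12. Without the Tc0 library of mouse 728, 3 were lower and 1 higher, where 1114 of 15696 genes were lower and 1555 higher. Without that of mouse 715, 3 were lower and 0 higher, where 107 of 15710 genes were lower and 178 higher, and the median of the set was -0.38. Leaving out the CoA library of mouse 715 or of mouse 725 from the shared estimate of spread gave 2 lower each time, with 0 and 1 higher. Over all genes tested these fits gave 244 and 234 lower and 484 and 473 higher, against 185 lower and 380 higher in the main fit.

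The third comparison sets Tc22 cells directly against Tc0 cells with CoA. Dhx58, Isg20, Irf7, Ifi27, Ddx58, Tap2, Stat2 and Oas3 were higher in Tc22 cells, and Mx1, Bst2, Nlrc5 and Ifih1 were lower. That is 8 of 33 higher (24.2%) and 4 lower (12.1%), against 16% higher and 16% lower among all genes tested, so the share of lower calls was near that of all genes. The median log2 fold change was 0.20, against 0.0109 for all genes tested, and the range ran from -1.81 to 2.81. Each of the 3 comparisons shares libraries with the other 2, so their results are not independent of each other. Without the CoA library of mouse 715 there were 15 higher and 2 lower, without that of mouse 725 there were 3 and 3, and without that of mouse 728 there were 3 and 2. Over all genes tested these fits gave 2619 higher and 2678 lower of 15845, 1244 and 1190 of 15840, and 1274 and 1182 of 15872. The main fit had 2456 and 2457 of 15348. With mouse 725 left out of the Tc22 group there were 2 higher and 2 lower (1148 and 1037 over all genes tested). With mouse 715 left out of it there were 7 and 2 (1663 and 1588). Without the Tc0 library of mouse 728 there were 8 and 4 (2935 and 2978). Without mouse as a block 1 was higher and 1 lower (1017 and 1080).

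**Figure D2:**
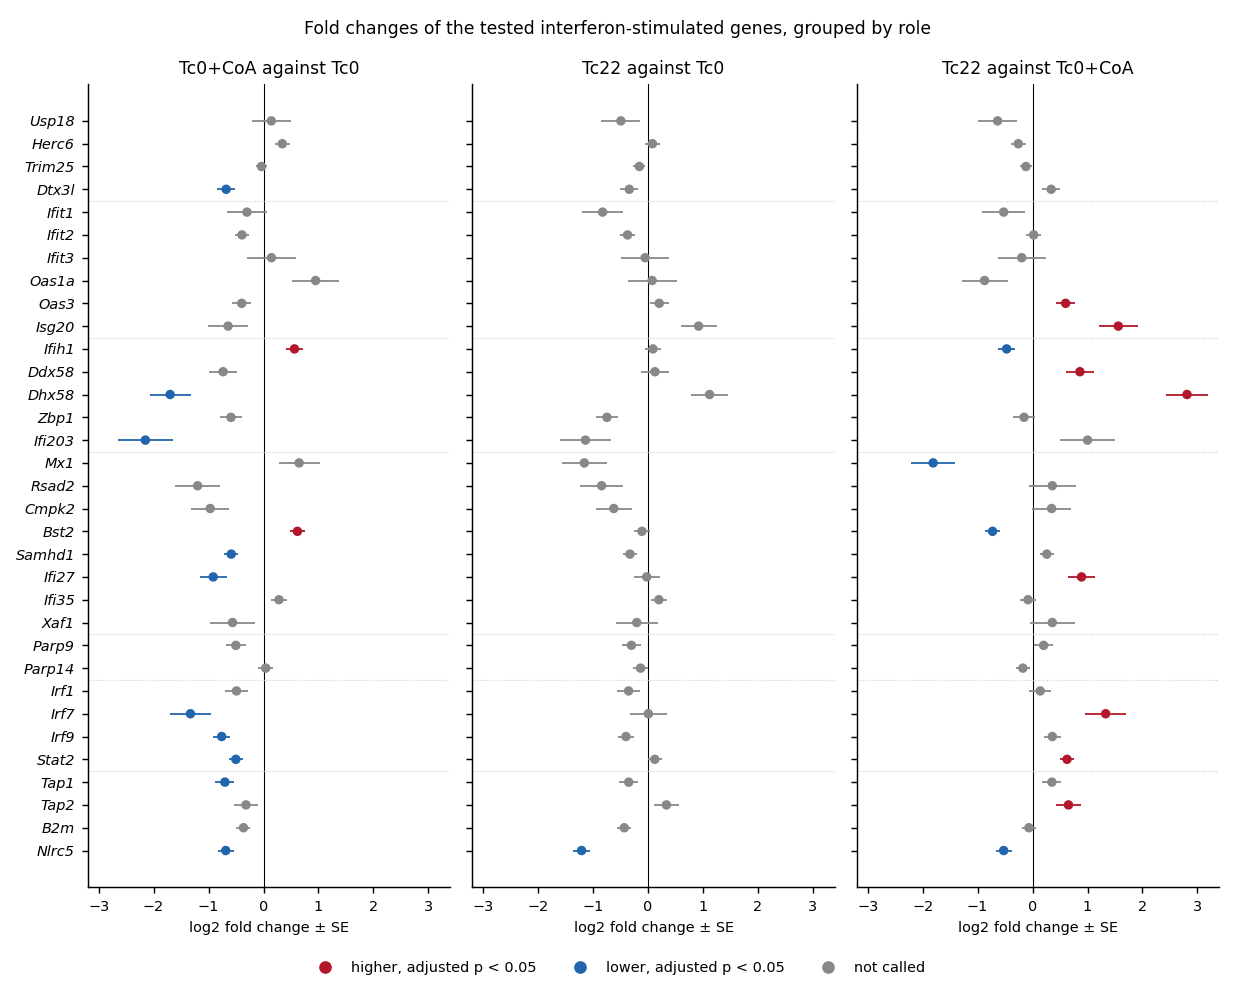
Log2 fold change with its standard error (x axis) for the 33 tested genes (y axis), grouped by role with dotted lines between the groups, in the 3 comparisons (panels). Red points passed the threshold upward, blue points downward, and grey points did not pass. The blue points of Tc0 cells with CoA against Tc0 cells number 10, Nlrc5 is the 1 coloured point of Tc22 against Tc0, and Dhx58 has the largest value in Tc22 against Tc0 with CoA at 2.81.

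Among the genes of the ubiquitin-like modifier system, 4 of 5 were tested and 1 was called, lower with CoA against Tc0 (25%, against 12% of all genes tested). Dtx3l (ENSMUSG00000049502, chromosome 16, 35926511 to 35939151, minus strand) encodes a ubiquitin ligase that works as a pair with PARP9. It had 162, 232 and 224 CPM in Tc22 cells, 172, 146 and 161 CPM in Tc0 cells with CoA and 199, 321 and 266 CPM in Tc0 cells. All 3 CoA libraries lay below all 3 Tc0 libraries, and the log2 fold change with CoA was -0.68, adjusted p = 0.0156, SE 0.16. The call did not hold without the CoA library of mouse 725 or 728 or the Tc0 library of mouse 725 (adjusted p from 0.0809 to 0.0877). In Tc22 cells against Tc0 cells Dtx3l was lower in each mouse without passing the test (-0.34, adjusted p = 0.256, SE 0.16). Usp18, which removes ISG15 and dampens the type I receptor, Herc6, the mouse ligase for ISG15, and Trim25, a ligase that acts on RIG-I, were not called in any of the 3 comparisons. Their log2 fold changes with CoA were 0.14, 0.34 and -0.0367 in that order, and Usp18 stayed between 0.863 and 3.12 CPM over the 9 libraries.

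Of the RNA-binding and RNA-degrading effectors, 6 of 9 were tested and none was called for either comparison with Tc0, where 2 of the 6 passed an unadjusted p of 0.05 in each and DESeq2 called 0. Among all genes tested, 12% were lower and 12.5% higher with CoA, and 1.21% and 2.48% in Tc22 cells. With only 6 genes, 0 calls is not read as a trait of this group. Ifit2, which binds viral RNA and was the highest of the group per length, had 19.9, 25.3 and 21.8 CPM in Tc22 cells, 22.5, 23.1 and 20.2 CPM in Tc0 cells with CoA and 27.3, 36.6 and 23.8 CPM in Tc0 cells. Its CoA values all lay below its Tc0 values, with a log2 fold change of -0.39, adjusted p = 0.0588, SE 0.13, and it passed the test with mouse 728 left out of the Tc0 group (adjusted p = 0.03). Its relatives Ifit1 and Ifit3 stayed between 0.17 and 1.12 CPM, and the 3 genes lie in 1 cluster on chromosome 19, where reads of near-identical copies may have been split.

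Isg20 (ENSMUSG00000039236, chromosome 7, 78913424 to 78920396, plus strand), a 3′ to 5′ exonuclease that degrades RNA, had 1.56, 3.76 and 3.74 CPM in Tc22 cells, 0.873, 0.615 and 1.55 CPM in Tc0 cells with CoA and 0.693, 1.54 and 2.86 CPM in Tc0 cells. It rose 2.96-fold in Tc22 cells against Tc0 cells with CoA (log2 1.56, adjusted p = 0.00885, SE 0.35), with no overlap between these groups. The call did not hold without the Tc22 library of mouse 725 and without the block on mouse (adjusted p 0.0849 at most). Oas3 (ENSMUSG00000032661, chromosome 5, 120753098 to 120777661, minus strand), which makes the oligoadenylate that switches on RNase L, had 37.2, 46.3 and 51.1 CPM in Tc22 cells, 27.8, 25.8 and 34.8 CPM in Tc0 cells with CoA and 24.7, 37.9 and 59.3 CPM in Tc0 cells. The 3 Tc22 values lay above the 3 CoA values, with a log2 fold change of 0.60, adjusted p = 0.0273, SE 0.18. That call did not hold without either CoA library of mice 725 and 728, without either Tc22 library of mice 715 and 725, and without the block (adjusted p from 0.099 to 0.175). Oas1a, in the same cluster on chromosome 5, was under 1 CPM in every library and was not called.

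Of the RNA and DNA sensors, 5 of 6 were tested, and they held the largest called changes of the set in both comparisons that use the CoA libraries. Dhx58 (ENSMUSG00000017830, chromosome 11, 100694884 to 100704271, minus strand) encodes LGP2, a helicase that tunes the RIG-I-like receptors. It had 15.6, 28.1 and 37.98 CPM in Tc22 cells, 3.19, 1.63 and 7.46 CPM in Tc0 cells with CoA and 4.596, 13.3 and 24.3 CPM in Tc0 cells. In each mouse the order was Tc22 highest, Tc0 next and CoA lowest. The fall with CoA against Tc0 was 3.24-fold (log2 -1.70, adjusted p = 0.012, SE 0.38), and the CoA and Tc0 values overlapped through the low Tc0 library of mouse 715. That call did not hold without the Tc0 library of mouse 725 or 728 and without the block (adjusted p from 0.0521 to 0.114). Against Tc0 cells with CoA, Tc22 cells were 7.03-fold higher (log2 2.81, adjusted p = 0.00113, SE 0.38), and this was called under all 15 alternatives. Against Tc0 cells, Tc22 cells had a log2 fold change of 1.12, adjusted p = 0.117, SE 0.34, which passed without the CoA library of mouse 725, with only the 2 groups in the fit and with no filter on low counts (adjusted p from 0.00201 to 0.0255).

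Ifih1 and Ddx58, which encode the RNA receptors MDA5 and RIG-I, did not move together. Ifih1 (ENSMUSG00000026896, chromosome 2, 62595798 to 62646255, minus strand) had 14.5, 19.4 and 15.9 CPM in Tc22 cells, 25.4, 27.01 and 17.5 CPM in Tc0 cells with CoA and 16.6, 17.95 and 12.6 CPM in Tc0 cells. It was highest with CoA in each mouse, though the groups overlapped, and rose 1.48-fold against Tc0 (log2 0.56, adjusted p = 0.023, SE 0.15). In Tc22 cells it was lower than with CoA (log2 -0.47, adjusted p = 0.0359, SE 0.15). The first call needed every CoA library and the Tc0 libraries of mice 725 and 728 (adjusted p up to 0.123 without one of them). The second needed every CoA library, the Tc22 libraries of mice 715 and 725 and the Tc0 library of mouse 725 (up to 0.215). Neither held without the block.

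Ddx58 (ENSMUSG00000040296, chromosome 4, 40203773 to 40239828, minus strand), the highest sensor gene per length, had 33.6, 60.2 and 59.5 CPM in Tc22 cells, 30.9, 21.5 and 27.7 CPM in Tc0 cells with CoA and 29.3, 61.04 and 50.9 CPM in Tc0 cells. Against Tc0, the CoA libraries of mice 725 and 728 were lower and that of mouse 715 was slightly higher (log2 -0.74, adjusted p = 0.0603, SE 0.25). Tc22 cells were 1.82-fold higher than Tc0 cells with CoA, with no overlap (log2 0.86, adjusted p = 0.0279, SE 0.25). That call did not hold without either Tc22 library or either CoA library of mice 725 and 728, and without the block (adjusted p from 0.0659 to 0.128).

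Ifi203 (ENSMUSG00000039997, chromosome 1, 173920407 to 173942672, minus strand), a DNA-binding protein of the mouse Ifi200 family, had 9.45, 43.6 and 33.5 CPM in Tc22 cells, 17.1, 7.96 and 10.7 CPM in Tc0 cells with CoA and 32.8, 94.6 and 59.03 CPM in Tc0 cells. All CoA values lay below all Tc0 values, with the widest gap in mouse 725. The fall with CoA, 4.43-fold, was the largest of the set (log2 -2.15, adjusted p = 0.0149, SE 0.51). It did not hold without the CoA library of mouse 728 or the Tc0 library of mouse 725 (adjusted p from 0.0591 to 0.0786). Ifi203 overlaps the family member Mndal on the same strand, at a mean of 39.1 CPM, so the counting may have divided reads between them. Zbp1, which senses left-handed nucleic acid, was not called, with log2 fold changes of -0.59, adjusted p = 0.0644, SE 0.21 with CoA and -0.75, adjusted p = 0.0875, SE 0.21 in Tc22 cells against Tc0.

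**Figure D3:**
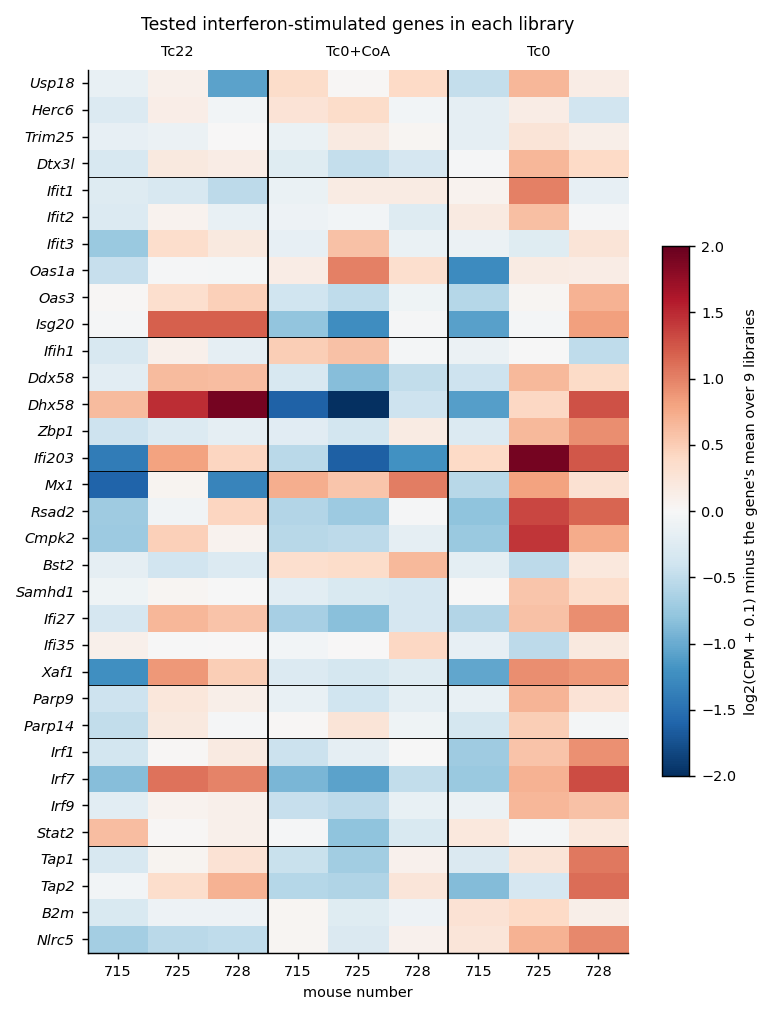
Level of the 33 tested genes (rows, grouped by role with lines between the groups) in the 9 libraries (columns, by group and mouse number). Colour gives log2(CPM + 0.1) minus the gene's mean over the 9 libraries, from blue (lower) to red (higher). The Tc0 libraries of mice 725 and 728 hold most of the dark red cells, and the Tc0 and Tc22 libraries of mouse 715 are mostly blue.

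Among the other antiviral effectors, 8 of 10 were tested. Bst2 (ENSMUSG00000046718, chromosome 8, 71534255 to 71537456, minus strand) encodes tetherin, which holds budding virus at the cell surface. It was the highest of these effectors per length and had 27.3, 23.9 and 25.7 CPM in Tc22 cells, 39.3, 40.3 and 48.9 CPM in Tc0 cells with CoA and 27.1, 21.7 and 35.9 CPM in Tc0 cells. All 3 CoA values lay above the 6 other values, and the rise against Tc0 was 1.53-fold (log2 0.62, adjusted p = 0.0136, SE 0.14). That call did not hold without the CoA library of mouse 725 or 728, the Tc0 library of mouse 725 or the block (adjusted p from 0.0691 to 0.0853). Tc22 cells were 1.66-fold lower than Tc0 cells with CoA (log2 -0.73, adjusted p = 0.00482, SE 0.14), and this was called under all 15 alternatives. Bst2 is also 1 of 6 listed markers of plasmacytoid dendritic cells. Of the others, Siglech was at 0 in all 9 libraries, Ccr9 was at most 1.38 CPM and Il3ra at most 4.02 CPM, Tcf4 lay between 7.46 and 14.4 CPM, and Irf8 is described with the signalling genes. Their part in the result was not tested.

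Samhd1 (ENSMUSG00000027639, chromosome 2, 157097533 to 157135265, minus strand), which removes the nucleotides that reverse transcription needs, had 192, 211 and 202 CPM in Tc22 cells, 177, 165 and 162 CPM in Tc0 cells with CoA and 203, 301 and 261 CPM in Tc0 cells. The CoA values all lay below the Tc0 values and were close to each other, and the log2 fold change was -0.59, adjusted p = 0.0116, SE 0.13. It did not hold without the CoA library of mouse 725 or 728 or the Tc0 library of mouse 725 (adjusted p from 0.0689 to 0.0736).

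Ifi27 (ENSMUSG00000064215, chromosome 12, 103434211 to 103440239, plus strand), a small mitochondrial membrane protein, had 14.9, 29.9 and 28.01 CPM in Tc22 cells, 11.9, 10.5 and 14.96 CPM in Tc0 cells with CoA and 12.5, 28.2 and 35.9 CPM in Tc0 cells. Its values were alike in the 3 libraries of mouse 715 and lower with CoA in mice 725 and 728. The log2 fold change was -0.92, adjusted p = 0.0241, SE 0.25 with CoA against Tc0 and 0.89, adjusted p = 0.021, SE 0.24 in Tc22 cells against Tc0 with CoA. Neither call held without the CoA library of mouse 725 or 728 and without the block. The first also did not hold without the Tc0 library of mouse 725 or 728 (adjusted p of these 5 settings from 0.0948 to 0.121), and the second without the Tc22 library of mouse 725 (0.103 to 0.115 over its 4 settings).

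Mx1 (ENSMUSG00000000386, chromosome 16, 97447035 to 97462907, minus strand), the classic antiviral GTPase gene whose C57BL/6 allele gives no functional protein, had 0.374, 1.39 and 0.4796 CPM in Tc22 cells, 2.28, 2.03 and 2.84 CPM in Tc0 cells with CoA and 0.881, 2.43 and 1.68 CPM in Tc0 cells. It was 3.51-fold lower in Tc22 cells than in Tc0 cells with CoA, with no overlap (log2 -1.81, adjusted p = 0.00879, SE 0.41), and the call did not hold without the block (adjusted p = 0.0593). Rsad2, which encodes viperin, and its neighbour Cmpk2 on chromosome 12 had their highest values in the Tc0 libraries of mice 725 and 728. Rsad2 had 0.569, 0.506 and 0.888 CPM in Tc0 cells with CoA, against 0.472, 2.43 and 2.15 CPM in Tc0 cells, and Cmpk2 had 1.52, 1.56 and 1.997 CPM in Tc0 cells with CoA, against 1.32, 6.295 and 3.85 CPM in Tc0 cells. Neither was called (adjusted p = 0.0574 and 0.0674), and both passed without the CoA or the Tc0 library of mouse 715. Ifi35 and Xaf1 were not called in the 3 comparisons.

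The ADP-ribosyltransferases Parp9, the partner of Dtx3l, and Parp14 were not called (edgeR, 1 of 2 with an unadjusted p under 0.05 for CoA against Tc0 and 0 of 2 in the other comparisons, and DESeq2 calls for Parp9 with CoA alone). Parp9 had 98.3, 154 and 143 CPM in Tc22 cells, 119, 100.3 and 115 CPM in Tc0 cells with CoA and 119, 211 and 159.8 CPM in Tc0 cells. The CoA values all lay below the Tc0 values, though the CoA and Tc0 libraries of mouse 715 were nearly level, and the log2 fold change was -0.50, adjusted p = 0.0639, SE 0.18. It was called in DESeq2 and without the CoA or the Tc0 library of mouse 715 (adjusted p from 0.0045 to 0.0446 over the settings that called it). Parp9 and Dtx3l overlap on opposite strands, and whether the counting used strand is not stated, so some of their reads may be shared. Parp14 had 69.8, 113 and 96.98 CPM in Tc22 cells, 99.8, 118 and 92.9 CPM in Tc0 cells with CoA and 76.9, 138 and 95.8 CPM in Tc0 cells, with a log2 fold change of 0.0404 for CoA against Tc0.

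All 4 transcription factors of the set had negative log2 fold changes with CoA against Tc0. Of the 4, 3 were called lower (75%, against 12% of all genes tested). None was called in Tc22 against Tc0 (edgeR, 1 with an unadjusted p under 0.05, and 0 called in DESeq2), where 1.21% of all genes tested were lower and 2.48% higher. Irf9 (ENSMUSG00000002325, chromosome 14, 55603571 to 55610030, plus strand), the DNA-binding part of ISGF3, had 25.8, 31.3 and 32.1 CPM in Tc22 cells, 21.7, 20.7 and 26.99 CPM in Tc0 cells with CoA and 27.6, 47.3 and 44.9 CPM in Tc0 cells. All CoA values lay below all Tc0 values, and the log2 fold change was -0.76, adjusted p = 0.00915, SE 0.16. It did not hold without the Tc0 library of mouse 725 alone (adjusted p = 0.054). Irf9 overlaps Rnf31 on the same strand, at a mean of 29.8 CPM.

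Stat2 (ENSMUSG00000040033, chromosome 10, 128270559 to 128292849, plus strand), its partner in ISGF3, had 68.2, 44.8 and 47.8 CPM in Tc22 cells, 43.4, 25.4 and 36.0 CPM in Tc0 cells with CoA and 51.4, 42.95 and 51.2 CPM in Tc0 cells. In each mouse the CoA library was the lowest, while the CoA and Tc0 groups overlapped slightly. The log2 fold change was -0.50, adjusted p = 0.0223, SE 0.13 with CoA against Tc0 and 0.63, adjusted p = 0.00677, SE 0.13 in Tc22 cells against Tc0 with CoA, where the groups did not overlap. The first call did not hold without the CoA or the Tc0 library of mouse 725 or of mouse 728 and without the block (adjusted p from 0.0589 to 0.201), and the second without the block alone (0.0899).

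Irf7 (ENSMUSG00000025498, chromosome 7, 141262706 to 141266481, minus strand), the factor that amplifies type I interferon transcription, had 1.19, 4.83 and 4.54 CPM in Tc22 cells, 1.14, 1.01 and 1.55 CPM in Tc0 cells with CoA and 1.29, 3.68 and 5.67 CPM in Tc0 cells. The 3 libraries of mouse 715 and all CoA libraries lay between 1.01 and 1.55 CPM, and the other 4 libraries between 3.68 and 5.67 CPM. The log2 fold change was -1.33, adjusted p = 0.0301, SE 0.38 with CoA against Tc0 and 1.33, adjusted p = 0.024, SE 0.38 in Tc22 cells against Tc0 with CoA. Neither call held without the CoA library of mouse 725 or 728 and without the block. The first also did not hold without the Tc0 library of mouse 725 or 728 (adjusted p up to 0.164), and the second without the Tc22 library of mouse 725 (up to 0.137). Irf7 overlaps Phrf1, at a mean of 69.9 CPM, on the opposite strand, and whether they share reads was not tested.

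Irf1 (ENSMUSG00000018899, chromosome 11, 53770014 to 53778374, plus strand), a factor that interferon gamma induces and the highest of these factors per length, had 58.1, 76.7 and 84.99 CPM in Tc22 cells, 56.1, 66.8 and 74.8 CPM in Tc0 cells with CoA and 46.2, 111 and 143 CPM in Tc0 cells. The Tc0 values spread more than those of the other groups, and Irf1 was not called (-0.49, adjusted p = 0.108, SE 0.21 with CoA against Tc0). It was called without the CoA or the Tc0 library of mouse 715 and with no filter on low counts (adjusted p from 0.00465 to 0.0441).

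The 4 class I presentation genes of the set also had negative log2 fold changes with CoA against Tc0. Of the 4, 2 were called lower (50%, against 12% of all genes tested). Nlrc5 (ENSMUSG00000074151, chromosome 8, 94434356 to 94527272, plus strand), the transactivator that drives class I genes, had 69.8, 76.98 and 78.5 CPM in Tc22 cells, 115, 91.2 and 118 CPM in Tc0 cells with CoA and 132, 180.3 and 217 CPM in Tc0 cells. The 3 groups did not overlap: Tc22 cells were lowest, Tc0 cells with CoA next and Tc0 cells highest in each mouse. Tc22 cells were 2.32-fold lower than Tc0 cells (log2 -1.21, adjusted p = 0.00302, SE 0.15), and this was called under all 15 alternatives. The log2 fold change was -0.69, adjusted p = 0.0111, SE 0.15 with CoA against Tc0, and -0.53, adjusted p = 0.0238, SE 0.15 in Tc22 cells against Tc0 with CoA. The first of these did not hold without the CoA library of mouse 725 or 728 or the Tc0 library of mouse 725 (adjusted p from 0.0614 to 0.0637). The second did not hold without the CoA library of mouse 715 or 728, without any 1 Tc22 library and without the block (0.0637 to 0.0914). Nlrc5 overlaps a long noncoding RNA, 9330175E14Rik, on the opposite strand at a mean of 7.9 CPM.

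Tap1 (ENSMUSG00000037321, chromosome 17, 34187553 to 34197225, plus strand) encodes 1 chain of the peptide pump that feeds class I molecules, and Tap2 the other. Tap1 had 131, 171 and 199.8 CPM in Tc22 cells, 120.3, 101 and 175 CPM in Tc0 cells with CoA and 135, 197 and 343 CPM in Tc0 cells. It was lowest with CoA in each mouse, with overlapping groups and a high Tc0 library of mouse 728, and the log2 fold change against Tc0 was -0.70, adjusted p = 0.0178, SE 0.17. The call did not hold without the CoA or the Tc0 library of mouse 725 or of mouse 728 and without the block (adjusted p from 0.0649 to 0.166). Tap1 overlaps Psmb9, an immunoproteasome gene at a mean of 85.7 CPM, on the opposite strand.

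Tap2 (ENSMUSG00000024339, chromosome 17, 34203527 to 34216321, plus strand) had 47.2, 62.4 and 79.3 CPM in Tc22 cells, 32.95, 32.1 and 57.9 CPM in Tc0 cells with CoA and 26.8, 38.7 and 106 CPM in Tc0 cells. Its Tc0 values enclosed those of the other groups, and Tap2 was not called for CoA against Tc0 (-0.32, adjusted p = 0.333, SE 0.23). In Tc22 cells it was higher than in Tc0 cells with CoA by a narrow margin (log2 0.65, adjusted p = 0.0498, SE 0.22). That call did not hold under 8 alternatives, other scalings included (adjusted p from 0.0546 to 0.398), among them without either Tc22 library of mice 715 and 725, either CoA library of mice 725 and 728, or the Tc0 library of mouse 725.

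B2m (ENSMUSG00000060802, chromosome 2, 122147686 to 122153083, plus strand) had 1092, 1260.0 and 1263 CPM in Tc22 cells, 1393, 1141 and 1255 CPM in Tc0 cells with CoA and 1646, 1774 and 1466 CPM in Tc0 cells. All 3 Tc0 values lay above the 6 other values. B2m was not called for CoA against Tc0 (-0.37, adjusted p = 0.0613, SE 0.13) nor for Tc22 against Tc0 (-0.43, adjusted p = 0.102, SE 0.13). Without the Tc0 library of mouse 728 both were called, as they were in DESeq2 (adjusted p from 0.0216 to 0.0411 for CoA and from 0.0221 to 0.0313 for Tc22 over the settings that called them).

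The set was lower in mouse 715 than in the other mice in the groups without CoA. In Tc22 cells, 28 of the 33 tested genes had their lowest value in mouse 715 (84.8%, against 39.8% of all genes tested), and in Tc0 cells 24 of 33 (72.7%, against 32.9%). In Tc0 cells with CoA it was 8 of 33 (24.2%, against 30.9%), and 20 of 33 were lowest in mouse 725 (60.6%, against 33.8%). The median log2 ratio of mouse 725 over mouse 715 was 0.40 in Tc22 cells, -0.11 in Tc0 cells with CoA and 0.82 in Tc0 cells. That of mouse 728 over mouse 715 was 0.46 in Tc22 cells, 0.19 in Tc0 cells with CoA and 0.72 in Tc0 cells. The median within-mouse log2 difference of CoA against Tc0 was 0.0552 in mouse 715, -0.85 in mouse 725 and -0.73 in mouse 728, while that of all genes tested lay between -0.00921 and 0.007. For Tc22 against Tc0 it was -0.0814, -0.29 and -0.32 in the 3 mice, and for Tc22 against Tc0 with CoA -0.13, 0.36 and 0.25. With 1 library of each group in a mouse, these within-mouse values have no replicate and no test. The same sign in all 3 mice was seen for 13 lower and 5 higher of the 33 with CoA against Tc0 (39.4% and 15.2%, against 26.8% and 27.2% of all genes tested). For Tc22 against Tc0 it was seen for 13 lower and 2 higher (39.4% and 6.06%, against 21.2% and 19.1%). For Tc22 against Tc0 with CoA it was seen for 12 higher and 8 lower (36.4% and 24.2%, against 32.9% and 32.5%).

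**Figure D4:**
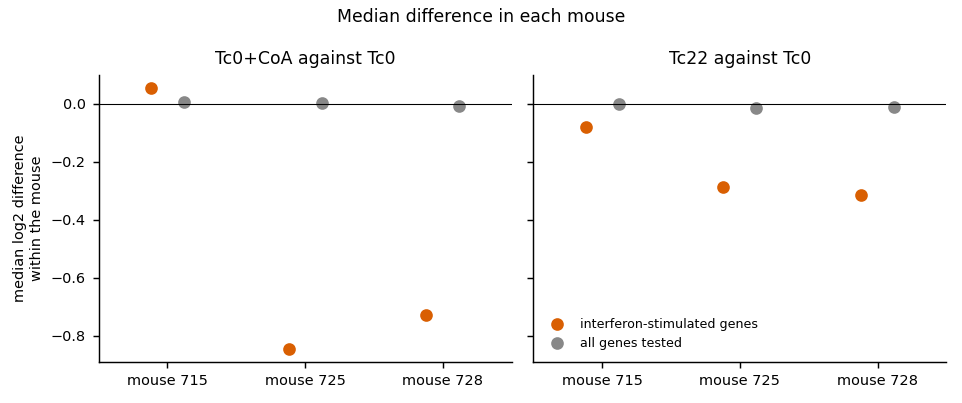
Median within-mouse difference in log2(CPM + 0.1) (y axis) of the 33 tested interferon-stimulated genes (orange) and of all 15348 genes tested (grey) for each mouse (x axis), for Tc0 cells with CoA against Tc0 cells (left) and Tc22 cells against Tc0 cells (right). With CoA the orange points sit at 0.0552 for mouse 715, -0.85 for mouse 725 and -0.73 for mouse 728, and the grey points sit near 0.

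Upstream of the set, the interferon gamma gene rose with CoA, where most called genes of the set fell. Ifng (ENSMUSG00000055170, chromosome 10, 118441046 to 118445892, plus strand) had 2.79, 2.64 and 1.86 CPM in Tc22 cells, 37.5, 43.4 and 22.9 CPM in Tc0 cells with CoA and 8.59, 1.87 and 1.51 CPM in Tc0 cells. All CoA values lay above the 6 other values, the rise against Tc0 was 10.2-fold (log2 3.34, adjusted p = 0.00181, SE 0.41), and Tc22 cells were 14.3-fold lower than Tc0 cells with CoA (log2 -3.84, adjusted p = 0.000461, SE 0.42). Both were called under all 15 alternatives. In Tc22 cells against Tc0 cells Ifng was not called (-0.50, adjusted p = 0.511, SE 0.42), and the Tc0 library of mouse 715 was the highest outside the CoA group. Of the 7 type I and type III interferon genes listed, Ifnb1, Ifna1, Ifna4, Ifne, Ifnl2 and Ifnl3 had a count of 0 in all 9 libraries, which allows up to 0.0827 to 0.137 CPM per library by a limit of 3 counts that covers counting error only. Ifna2 had 1 count in 1 library.

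Of the 6 receptor and ligand genes tested, 1 was called higher and 2 lower with CoA against Tc0 (16.7% and 33.3%, against 12.5% and 12% of all genes tested). Ifngr1, the binding chain of the interferon gamma receptor, had 161, 279.7 and 276 CPM in Tc22 cells, 108, 79.3 and 159 CPM in Tc0 cells with CoA and 179.9, 293 and 279 CPM in Tc0 cells. It fell with CoA against Tc0 (log2 -1.11, adjusted p = 0.00799, SE 0.22) and was higher in Tc22 cells than in Tc0 cells with CoA (log2 1.03, adjusted p = 0.00675, SE 0.22), each under all 15 alternatives. Ifngr2, the signalling chain, had 13.3, 17.5 and 23.6 CPM in Tc22 cells, 9.83, 8.68 and 12.9 CPM in Tc0 cells with CoA and 8.499, 9.51 and 12.3 CPM in Tc0 cells, and rose in Tc22 cells against Tc0 (log2 0.83, adjusted p = 0.0161, SE 0.15) and against Tc0 with CoA (log2 0.77, adjusted p = 0.00492, SE 0.15). The first of these did not hold without the Tc22 library of mouse 725 or 728 or the Tc0 library of mouse 715 or 725, and neither held without the block (adjusted p up to 0.247). Ifnar2, of the type I receptor, had 39.5, 31.8 and 40.4 CPM in Tc0 cells with CoA, against 45.2, 54.4 and 54.1 CPM in Tc0 cells (log2 -0.46, adjusted p = 0.0331, SE 0.13), a call that needed the CoA and the Tc0 libraries of mice 725 and 728 (adjusted p up to 0.198 without them).

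**Figure D5:**
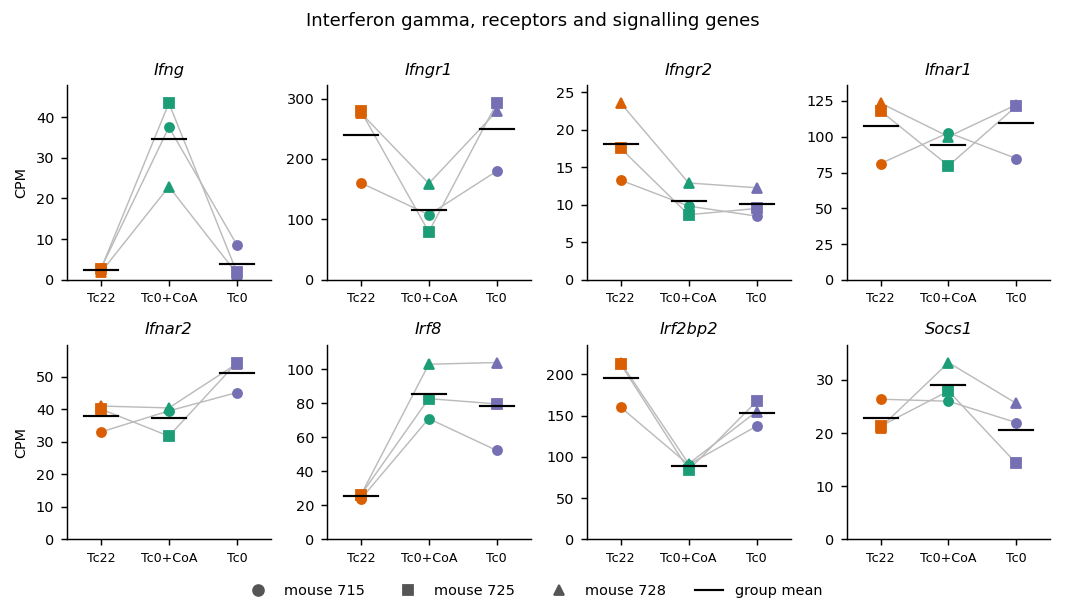
Level in CPM (y axis, linear, from 0) of Ifng, the interferon receptor genes Ifngr1, Ifngr2, Ifnar1 and Ifnar2, and Irf8, Irf2bp2 and Socs1 in the 3 groups (x axis). Each symbol is 1 library, its shape gives the mouse, grey lines join the libraries of a mouse and black bars are group means. Ifng is highest in the 3 CoA libraries (22.9 to 43.4 CPM), where Ifngr1 is lowest, and Irf8 is lowest in the 3 Tc22 libraries (23.6 to 26.1 CPM).

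Of 19 tested genes of interferon signalling and feedback, 1 was higher and 5 lower with CoA against Tc0 (5.26% and 26.3%, against 12.5% and 12% of all genes tested). In Tc22 against Tc0, 1 was higher and 1 lower (5.26% each, against 2.48% and 1.21%). In Tc22 against Tc0 with CoA, 6 were higher and 4 lower (31.6% and 21.1%, against 16% and 16%). Irf8, a lineage factor that interferon gamma induces in myeloid cells, had 23.6, 26.1 and 25.9 CPM in Tc22 cells, 70.98, 82.7 and 103 CPM in Tc0 cells with CoA and 52.3, 79.7 and 104 CPM in Tc0 cells. Its fall in Tc22 cells was 3.01-fold against Tc0 (log2 -1.59, adjusted p = 0.000801, SE 0.15) and 3.34-fold against Tc0 with CoA (log2 -1.74, adjusted p = 0.000203, SE 0.15), both under all 15 alternatives. Socs1, the inhibitor that interferon gamma induces, had 26.4, 21.3 and 21.04 CPM in Tc22 cells, 26.0, 27.9 and 33.3 CPM in Tc0 cells with CoA and 21.97, 14.3 and 25.6 CPM in Tc0 cells and was not called in the 3 comparisons (0.52, adjusted p = 0.0611, SE 0.18 with CoA against Tc0).

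Further genes of this list were called. Socs3, the related inhibitor of STAT3-linked receptors, rose with CoA against Tc0 (log2 0.86, adjusted p = 0.0113, SE 0.19) and in Tc22 against Tc0 (log2 0.80, adjusted p = 0.0463, SE 0.19). The first did not hold with mouse 725 left out of the Tc0 group or without the block (adjusted p up to 0.19) and the second without any 1 of 5 libraries, Tc0 of mouse 715 or 725 or any Tc22 library (up to 0.541). Irf2, a repressor of ISRE genes, fell with CoA (log2 -0.78, adjusted p = 0.0118, SE 0.17), as did Irf2bp2, which binds it (log2 -0.78, adjusted p = 0.00318, SE 0.12). Both were higher in Tc22 cells than in Tc0 cells with CoA (log2 0.80, adjusted p = 0.00694, SE 0.17 for Irf2 and 1.13, adjusted p = 0.000369, SE 0.12 for Irf2bp2). The calls of Irf2 did not hold without the CoA library of mouse 728, and the first also failed with mouse 725 left out of the Tc0 group (adjusted p up to 0.0738), while those of Irf2bp2 held under all 15 alternatives. Tlr7, an endosomal RNA receptor, was lower in Tc22 cells than in Tc0 cells with CoA (log2 -1.28, adjusted p = 0.00767, SE 0.28), though not without the Tc22 library of mouse 725 (adjusted p = 0.0533). Pias1, an inhibitor of the pathway, fell with CoA against Tc0 (log2 -0.57, adjusted p = 0.0104, SE 0.12), a call that did not hold without the CoA library of mouse 725 or 728 or the Tc0 library of mouse 725 (adjusted p up to 0.066).

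Interferon-stimulated genes beyond the set were split in direction. Of 52 tested genes, 12 were higher and 14 lower with CoA against Tc0 (23.1% and 26.9%, against 12.5% and 12% of all genes tested), with a median log2 fold change of -0.0164. In Tc22 against Tc0, 6 were higher and 1 lower (11.5% and 1.92%, against 2.48% and 1.21%). In Tc22 against Tc0 with CoA 10 were higher and 8 lower (19.2% and 15.4%, against 16% and 16%), shares near those of all genes. The Ifitm genes, whose membrane proteins block virus entry, included those with the smallest p among these in Tc22 against Tc0. Ifitm2 had 28.6, 21.8 and 27.5 CPM in Tc22 cells, 8.43, 10.2 and 12.6 CPM in Tc0 cells with CoA and 6.89, 3.78 and 6.14 CPM in Tc0 cells, with a log2 fold change of 2.22, adjusted p = 0.000777, SE 0.20 in Tc22 against Tc0. Ifitm1 had 8.77, 9.04 and 6.81 CPM in Tc22 cells, 2.96, 4.09 and 2.89 CPM in Tc0 cells with CoA and 2.01, 1.59 and 1.93 CPM in Tc0 cells (log2 2.12, adjusted p = 0.00105, SE 0.21 in Tc22 against Tc0). No Tc22 value of either gene overlapped those of the other groups, and both were called in Tc22 cells against each other group under all 15 alternatives.

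Other genes of this list with the smallest p followed several patterns. Ifi211, of the Ifi200 family, was higher in Tc22 cells than in Tc0 cells under all 15 alternatives, with 7.51, 16.6 and 12.1 CPM in Tc22 cells, against 2.74, 2.52 and 1.51 CPM in Tc0 cells (log2 2.44, adjusted p = 0.00527, SE 0.35). With CoA against Tc0, Slfn5 rose (log2 2.03, adjusted p = 0.00407, SE 0.32) and so did Ifitm3 (log2 1.74, adjusted p = 0.00425, SE 0.28), with Tc0 values of at most 1.13 CPM for Slfn5 and 0.70 CPM for Ifitm3. Cxcl10, a chemokine gene that interferon gamma induces, had 0.418, 1.52 and 0.355 CPM in Tc0 cells with CoA, against 0, 0 and 0.0551 CPM in Tc0 cells and was called higher (adjusted p = 0.00453), with no fold given since the Tc0 libraries were at or near 0. Sp100, a nuclear body protein, fell with CoA (log2 -1.14, adjusted p = 0.00456, SE 0.19). Against Tc0 cells with CoA, Tc22 cells were higher for Shisa5 (log2 0.91, adjusted p = 0.00117, SE 0.13) and Ifi27l2a (log2 1.80, adjusted p = 0.00227, SE 0.29). Mov10, an RNA helicase, was higher in Tc22 than in Tc0 (log2 0.77, adjusted p = 0.0254, SE 0.16), a call that needed the Tc22 and the Tc0 libraries of mice 715 and 725 (adjusted p from 0.0867 to 0.502 without one of them or without the block).

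The wider class I machinery held 18 tested genes, of which 1 was higher and 5 lower with CoA against Tc0 (5.56% and 27.8%, against 12.5% and 12% of all genes tested). In Tc22 against Tc0, 0 were higher and 1 lower (5.56%, against 2.48% higher and 1.21% lower). In Tc22 against Tc0 with CoA, 3 were higher and 2 lower (16.7% and 11.1%, against 16% and 16%), near the shares of all genes. In the comparison with 0 higher in edgeR, 0 were higher and 4 lower at an unadjusted p under 0.05, and DESeq2 called 0 higher and 2 lower. The median log2 fold change of the 18 with CoA against Tc0 was -0.30. H2-Q4, a class Ib heavy chain gene, fell with CoA under all 15 alternatives, with 36.6, 31.3 and 38.8 CPM in Tc0 cells with CoA, against 48.2, 51.7 and 69.8 CPM in Tc0 cells (log2 -0.66, adjusted p = 0.00582, SE 0.12). H2-Q7 (log2 -0.65, adjusted p = 0.0095, SE 0.14) and H2-Q6 (log2 -0.44, adjusted p = 0.0146, SE 0.10) fell as well, and reads of these near-identical genes may have been split between copies. The call of H2-Q6 did not hold without the CoA library of mouse 725 or 728 or the Tc0 library of mouse 725 (adjusted p up to 0.112), and neither held without the block. Calr, an endoplasmic reticulum chaperone that also folds other proteins, rose with CoA (log2 0.76, adjusted p = 0.00265, SE 0.11) and was lower in Tc22 cells than with CoA (log2 -0.59, adjusted p = 0.00342, SE 0.11), both under all 15 alternatives. Tapbp, which bridges class I molecules to the peptide pump, was higher in Tc22 cells than in Tc0 cells with CoA (log2 0.70, adjusted p = 0.00691, SE 0.15), a call that did not hold without the Tc22 library of mouse 725 and without the block (adjusted p up to 0.136). H2-Q7 was also higher in Tc22 cells than with CoA (log2 0.45, adjusted p = 0.0303, SE 0.14), and Pdia3, a chaperone of the loading complex, was lower (log2 -0.39, adjusted p = 0.0315, SE 0.12). Of these, H2-Q7 needed the CoA libraries of mice 725 and 728 and the Tc22 libraries of mice 715 and 725 (adjusted p up to 0.27 without one of them or without the block), and Pdia3 needed these and the CoA library of mouse 715 (up to 0.166). Erap1, which trims peptides, was the gene called lower in Tc22 against Tc0 (log2 -0.52, adjusted p = 0.0231, SE 0.10), which needed the Tc22 and the Tc0 libraries of mice 715 and 725, the CoA library of mouse 728 and the block (adjusted p up to 0.377).

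T cell receptor genes and markers of other cell types also differed between the groups. With CoA against Tc0, 5 of the 8 CD8 T cell markers fell, where 12% of all genes tested were lower. Among them was Cd3e (log2 -0.72, adjusted p = 0.00598, SE 0.13), while Cd8a (-0.0605, adjusted p = 0.742, SE 0.12) and Cd8b1 (0.00469, adjusted p = 0.983, SE 0.14) were not called. The same 5 markers were called higher in Tc22 cells against Tc0 cells with CoA, where 16% of all genes tested were higher. Lyz2 had 0.646, 1.51 and 1.38 CPM in Tc22 cells, 1.52, 7.63 and 4.53 CPM in Tc0 cells with CoA and 1.01, 2.33 and 2.26 CPM in Tc0 cells, and its highest values were in the CoA libraries of mice 725 and 728. Adgre1, which marks macrophages, was at most 1.59 CPM and was highest in the CoA library of mouse 725. Cd68, of the same list, went another way. It was not called with CoA against Tc0 (log2 0.0174, adjusted p = 0.963, SE 0.22). In Tc22 cells it was higher than in Tc0 cells with CoA (log2 0.72, adjusted p = 0.0271, SE 0.21), with means of 4.87 and 2.94 CPM. The other 3 tested markers of that list were called lower there, where 16% of all genes tested were lower. They were Lyz2 (log2 -1.83, adjusted p = 0.00142, SE 0.26), Cd14 (-2.58, adjusted p = 0.00564, SE 0.52) and Csf1r (-1.60, adjusted p = 0.0421, SE 0.53). Cd14 was at most 1.16 CPM and Csf1r at most 0.796 CPM. The 6 dendritic cell markers summed to 18.9 to 24.7 CPM in Tc22 cells, 19.2 to 26.5 CPM in Tc0 cells with CoA and 6.48 to 10.7 CPM in Tc0 cells. Of them, Batf3 had a mean of 16.5 CPM in Tc22 cells, 16.2 CPM in Tc0 cells with CoA and 4.87 CPM in Tc0 cells. Zbtb46 had 3.37, 6.41 and 3.09 CPM in the same order of groups, and the other 4 markers were under 1 CPM in every library. The 6 natural killer cell markers, among them Eomes, which CD8+ T cells also express, summed to 7.14 to 11.1 CPM in Tc22 cells, 39.2 to 49.6 CPM in Tc0 cells with CoA and 18.9 to 30.6 CPM in Tc0 cells. Eomes alone had means of 4.34, 41.6 and 21.3 CPM in that order. Klra7 and Klrb1c went the other way and were higher in Tc22 cells than with CoA (log2 3.88, adjusted p = 0.00104, SE 0.51 and 1.57, adjusted p = 0.0452, SE 0.53). Klra7 was also lower with CoA than in Tc0 cells (log2 -2.10, adjusted p = 0.026, SE 0.57). The 6 plasmacytoid dendritic cell markers, which include Bst2 and Irf8, summed to 66.7 to 70.6 CPM in Tc22 cells, 120 to 162 CPM in Tc0 cells with CoA and 91.3 to 155 CPM in Tc0 cells. The 6 granulocyte and mast cell markers, mostly Kit, summed to 25.7 to 28.5 CPM in Tc22, 23.7 to 45.7 CPM with CoA and 24.5 to 46.1 CPM in Tc0. Kit was not called. Mcpt8, at most 1.48 CPM, was called higher with CoA against Tc0 (log2 2.77, adjusted p = 0.00431, SE 0.45). Mcpt8 (log2 -1.45, adjusted p = 0.0172, SE 0.38) and Cpa3 (log2 -2.56, adjusted p = 0.00703, SE 0.55) were lower in Tc22 cells than with CoA. The part of these markers in the changes of the set was not tested.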

How the data were processed

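Total RNA from CD8+ T cells was depleted of ribosomal RNA and made into stranded, randomly primed libraries, read as paired ends, per the labels' protocols. The authors deposited whole-number gene counts for 9 libraries. Among tools, STAR 2.5.2 and RSEM 1.3.0 are listed per the submitters' processing notes, with GRCm38 and mm10 as builds. The sources used here state neither the annotation release nor whether the counting used strand, nor how estimates became whole numbers. The 9 single files were identical to the joint table. Positions are from GENCODE M21 (GRCm38), with 53650 of 53679 identifiers matched.

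Groups and mice came from the sample titles, and the design text ties all populations to each mouse, so mouse was a block. Deviations from the group mean correlated between libraries of the same mouse with r from 0.0727 to 0.72 (mean 0.435, 9 pairs). Counts were scaled with TMM and filtered with filterByExpr by group (15348 genes). The test was the quasi-likelihood F test of edgeR 4.0.16 (R 4.3.3), on group and mouse over the 9 libraries (4 residual degrees of freedom, biological coefficient of variation 0.158). Benjamini-Hochberg adjustment ran over all 15348 genes, at a threshold of 0.05. The SE of a log2 fold change is its absolute value divided by the square root of F, an approximation. Rows without a symbol held 0.0226% of the counts. CPM uses the TMM-scaled library sizes, and levels per length use the exon length of GENCODE M21.

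The genes, the lists and the rules were chosen with earlier results of these data known. Genes named with values are the highest of each role group and every gene called in a comparison, and up to 4 called genes by p of each pathway list and comparison. Cmpk2, Rsad2, Zbp1, Parp14, Isg15 and the markers were added after their values were seen. A gene of the signalling list is not reported here. The alternatives were DESeq2 1.42.0, its size factors in edgeR, library size alone, no filter on low counts, no block, only the 2 groups compared, and each library left out in turn.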

Additional observations from a re-analysis of the deposited data

How the results depend on the processing

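The 3 libraries of a group limit all calls, and with 4 residual degrees of freedom single libraries decide many of them. For the 25 calls of single genes under 15 alternatives, 287 of the values stayed past the threshold and 88 did not, and none changed sign. Of the 12 calls for CoA against Tc0, 12 were lost without some library and 7 without the replicate block, of the 12 for Tc22 against Tc0 with CoA 8 and 10, and the 1 call for Tc22 against Tc0 held throughout. Other scalings (the size factors of DESeq2, library size alone) left the counts for both comparisons with Tc0 as they were and gave 7 higher instead of 8 for Tc22 against Tc0 with CoA. For CoA against Tc0, leaving out 1 library gave 0 to 2 higher and 0 to 19 lower, no replicate block 0 higher and 5 lower, and no filter on low counts 17 lower. The median log2 fold change stayed between -0.66 and -0.30 there. For Tc22 against Tc0, leaving out 1 library gave 0 to 1 higher, 1 to 3 lower and a median from -0.378 to -0.155. DESeq2 gave 3 lower, no filter on low counts 1 higher and 5 lower, and only the 2 groups compared 1 higher and 2 lower. For Tc22 against Tc0 with CoA, leaving out 1 library gave 2 to 15 higher and 2 to 4 lower, with a median from -0.0248 to 0.398, and no replicate block 1 higher and 1 lower. Over all genes tested, CoA against Tc0 had 1915 higher and 1848 lower, and 800 and 662 with no replicate block, and as few as 656 and 504 without 1 library (Tc0 of mouse 725). Tc22 against Tc0 had 380 and 185, and 87 and 33 with no replicate block, 627 and 335 in DESeq2, 831 and 444 with no filter on low counts, 148 and 53 with mouse 725 left out of the Tc22 group, and 1555 and 1114 without the Tc0 library of mouse 728. Tc22 against Tc0 with CoA had 2456 and 2457, and 1017 and 1080 with no replicate block, and 1148 and 1037 with mouse 725 left out of the Tc22 group. The cause of these shifts was not tested, apart from the fewer samples of the fits without a library.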
